A study of Mus musculus with 8 samples.

Results

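Nr4a1, Nr4a2, Nr4a3, Egr1, Egr2, Egr3 and Cd69 are 7 early genes of T cell receptor (TCR) signals. They were chosen by name from the 31053 genes of one experiment's table and the 32285 genes of the other, and all 7 are in both. Their RNA was followed in tumour CD8 T cells, taken here as cell barcodes with at least 1 unique molecular identifier (UMI, a tag that marks 1 captured RNA molecule) of Cd8a or Cd8b1 and at least 1 of Cd3d, Cd3e or Cd3g. That gate kept 31418 of 34278 filtered barcodes.

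Tumours of MC38, a colon carcinoma cell line from C57BL/6 mice, were grown in wild-type hosts of that strain. In experiment 1, mice were given 10 mg/kg of rhIL-7-hyFc, a long-acting fusion of human interleukin-7 to an antibody Fc, or buffer, under the skin, and tumours were taken on day 7. In experiment 2, every mouse had 1.25 mg/kg of rhIL-7-hyFc, with or without a T cell engager (TCE) that binds mouse PD-L1 on one arm and CD3ε on the other, and tumours were taken 24 h after the last treatment. Experiment 1 used magnetic enrichment and experiment 2 used sorting of live CD45+ TCRβ+ CD8α+ cells, so levels are compared between treatments within an experiment only. Each group was 1 expression library with a matched TCR library, while the mice behind a library are not numbered in the labels. A treatment therefore has no replicate and no test. Comparisons of cell states were paired within each of the 4 libraries, which served as the replicates although they differ in treatment and experiment.

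NR4A1 to NR4A3 are orphan nuclear receptors, made quickly after antigen contact, that bind DNA as transcription factors. In T cells they restrain effector genes, and sustained NR4A activity accompanies dysfunction in tumours and chronic infection. EGR1 to EGR3 are zinc finger factors induced by the ERK and calcium branches of the TCR pathway. EGR2 and EGR3 also drive brakes on the signal, with NAB2 as a partner. CD69 is a surface protein that appears early on activated T cells and holds cells in tissue by removing the S1P receptor S1PR1 from the surface. In CD8 T cells of tumours, PD-1 (gene Pdcd1) marks cells that have met antigen, and expanded clonotypes mark the families that multiplied.

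The 3 Nr4a promoters, shown because they share one feature, are given from RefSeq with 250 bases before the start and 50 after it. Capitals mark TGACG, the core of the cyclic AMP response element (CRE), or CGTCA, the same letters read from the other strand. They lie at chr15:101266596-101266895 on the plus strand for Nr4a1, chr2:57123954-57124253 on the minus strand for Nr4a2 and chr4:48045055-48045354 on the plus strand for Nr4a3 (GRCm38.p6).
Nr4a1: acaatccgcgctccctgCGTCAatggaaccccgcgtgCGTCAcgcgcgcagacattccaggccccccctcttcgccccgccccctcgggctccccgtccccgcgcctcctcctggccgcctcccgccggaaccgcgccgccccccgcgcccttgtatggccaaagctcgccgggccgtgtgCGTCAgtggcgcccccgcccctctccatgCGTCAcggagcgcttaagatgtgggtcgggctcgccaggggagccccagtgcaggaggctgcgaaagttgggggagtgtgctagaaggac
Nr4a2: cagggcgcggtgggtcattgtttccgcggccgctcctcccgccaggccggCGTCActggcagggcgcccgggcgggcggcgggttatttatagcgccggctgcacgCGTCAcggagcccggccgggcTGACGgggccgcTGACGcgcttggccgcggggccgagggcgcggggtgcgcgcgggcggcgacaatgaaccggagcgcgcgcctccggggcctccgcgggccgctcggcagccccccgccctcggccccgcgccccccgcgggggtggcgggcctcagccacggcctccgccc
Nr4a3: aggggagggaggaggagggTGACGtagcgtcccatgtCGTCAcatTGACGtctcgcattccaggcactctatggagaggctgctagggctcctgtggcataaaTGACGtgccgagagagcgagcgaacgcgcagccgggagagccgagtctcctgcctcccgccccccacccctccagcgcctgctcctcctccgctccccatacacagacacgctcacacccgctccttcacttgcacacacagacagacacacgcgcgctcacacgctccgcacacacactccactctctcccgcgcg
Each held 4 CRE cores, at bases 18, 38, 182 and 211 in Nr4a1, at 51, 107, 128 and 140 in Nr4a2, and at 20, 38, 46 and 104 in Nr4a3, counted from the 5′ end. Of 32851 RefSeq mouse promoters of this length, 20.8% held at least 1 core on either strand and 0.231%, or 76 promoters, held 4 or more. The motif and the number of copies were chosen after the sequences had been seen. None of the 3 held the full element TGACGTCA, which contains the core (1.79% of promoters did), the AP-1 site TGANTCA (7.81%), the EGR site GCGTGGGCG (0.612%), the NR4A site AAAGGTCA (1.51%) or the SRF box (1.63%). Egr2 had 5 listed starts, which overlap in part, of which 3 held 2 cores and 4 held an SRF box. Promoters of Egr1, Egr3 and Cd69 were not shown.

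In GENCODE annotation of GRCm38, Nr4a1 spans chr15:101254269-101274795, Nr4a2 chr2:57106830-57124003, Nr4a3 chr4:48045153-48086447, Egr2 chr10:67535475-67542188, Egr3 chr14:70077203-70082614 and Cd69 chr6:129267325-129275436. Egr1 lies on chromosome 18. All 7 are protein coding.

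The gate held 5622 barcodes in the 10 mg/kg library, 3975 in the buffer library, 10933 in the combination library and 10888 in the 1.25 mg/kg library, at medians of 6700 to 9726 UMIs. Any 2 libraries shared 45 to 195 barcode sequences. Levels are given as CPM, the UMIs of a gene per 1000000 UMIs of all genes. All 9 T cell markers passed 5 CPM in every library. Macrophage and monocyte RNA was also present: the 13 markers of that list summed to 536 CPM in the 10 mg/kg library, 1478 in buffer, 1151 in the combination and 4560 in 1.25 mg/kg, with no marker at 0. Barcodes with at least 0.3% of their UMIs from macrophage, dendritic cell and neutrophil markers made up 1.89%, 12.9%, 7.12% and 32.1% of those 4 libraries in the same order. Results that move with this RNA are given with and without these barcodes. Pdcd1 was detected in 17.4% of barcodes in the 10 mg/kg library, 67.1% in buffer, 64.1% in the combination and 58.8% in 1.25 mg/kg.

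Nr4a1 differed little between the libraries of an experiment. Its level was 256 CPM in the 10 mg/kg library and 241 in buffer, and 238 in the combination and 278 in 1.25 mg/kg. Nr4a2, the NR4A gene that differed most within an experiment, stood at 148 CPM in 10 mg/kg and 312 in buffer, and at 251 in the combination and 268 in 1.25 mg/kg. Nr4a3 was at 54.9 CPM in 10 mg/kg and 66.8 in buffer, and at 96.0 in the combination and 131 in 1.25 mg/kg. Thus Nr4a1 was slightly higher with rhIL-7-hyFc in experiment 1 while Nr4a2 and Nr4a3 were lower. Egr1 was at 161 CPM in 10 mg/kg and 197 in buffer, and at 121 in the combination and 176 in 1.25 mg/kg. Egr2 was at 3.62 CPM in 10 mg/kg and 7.22 in buffer, and at 4.08 in the combination and 18.8 in 1.25 mg/kg. Egr3 stayed between 1.31 and 2.33 CPM, too few molecules to rank the libraries within an experiment, as its 95% exact Poisson intervals overlapped in both. Cd69 was at 412 CPM in 10 mg/kg and 305 in buffer, and at 80.0 in the combination and 105 in 1.25 mg/kg. Such intervals, and those of ratios and shares below, cover counting error only, and UMIs of these genes clump: the top 1% of barcodes held 6.20% to 17.9% of the UMIs of Nr4a1, Nr4a2, Nr4a3, Egr1 and Cd69, and 27.5% to 78.8% of those of Egr2 and Egr3.

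**Figure D1:**
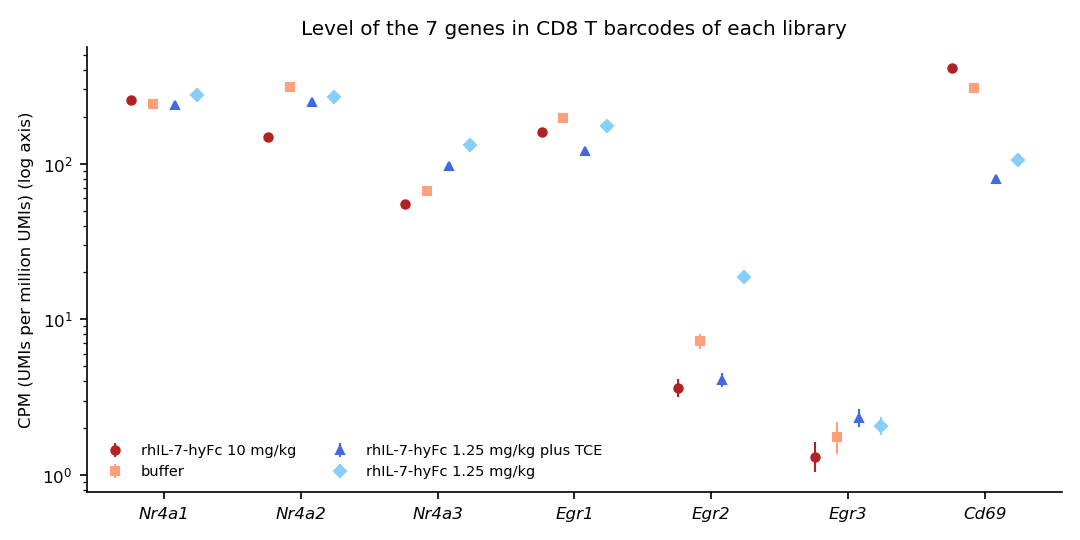
Level of each gene in CD8 T barcodes, in CPM on a log axis, with 95% exact Poisson intervals that cover counting error only. Each point is 1 library. Nr4a2 at 148 CPM in the 10 mg/kg library, against 312 in buffer, and Egr2 at 4.08 CPM in the combination, against 18.8 in 1.25 mg/kg, stand furthest apart within an experiment.

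Barcodes with at least 3000 UMIs were also thinned to 3000. This left out 187 gated barcodes in 10 mg/kg, 692 in buffer, 424 in the combination and 575 in 1.25 mg/kg. The share with a Nr4a2 UMI was then 20.2% in 10 mg/kg and 44.4% in buffer. It was 40.9% in the combination and 42.3% in 1.25 mg/kg. Unthinned and over all gated barcodes, those shares were 35.6%, 64.2%, 59.0% and 62.0%. For Cd69, whose protein is the classic early activation marker, the thinned shares were 60.5% in 10 mg/kg and 51.3% in buffer, and 19.1% in the combination and 27.1% in 1.25 mg/kg. Unthinned and over all gated barcodes, they were 87.0%, 73.9%, 35.7% and 51.1%. Filtered barcodes with no Cd8 and no Cd3 UMI had a median of 5065 to 11414 UMIs. Those with at least 3000 UMIs numbered 74 to 743 per library, and after thinning 20% to 23.9% of them held a Nr4a2 UMI. The 20.2% of the 10 mg/kg library is at that level, while the other 3 libraries lie above it. Cd69 was found in 11.4% to 32.2% of those barcodes, below the CD8 T share of the same library each time. Nr4a1 was found in 48.9% to 57.4% of them, above its 37.6% to 44.7% in CD8 T barcodes, so a Nr4a1 UMI by itself does not set CD8 T barcodes apart.

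Barcodes with a Pdcd1 UMI had more Nr4a2 RNA and less Cd69 RNA than barcodes without one in all 4 libraries. Nr4a2 was at 425 CPM with a Pdcd1 UMI and 60.7 without in the 10 mg/kg library, a ratio of 6.99 (95% exact conditional interval 6.69 to 7.31). It was at 360 with and 149 without in buffer, a ratio of 2.42 (2.29 to 2.56). The combination had 308 with and 113 without, and the 1.25 mg/kg library 318 with and 122 without, ratios of 2.73 and 2.61. Nr4a2 was thus higher with a Pdcd1 UMI within each of the 4 libraries. Across the 4 pairs Nr4a2 was 3.16-fold higher (log2 1.66, SE 0.25, adjusted p = 0.0159, edgeR's quasi-likelihood test with the library as a block, Benjamini-Hochberg over 12436 genes).

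Cd69 ran the other way. It was at 232 CPM with a Pdcd1 UMI and 469 without in 10 mg/kg, and at 261 and 457 in buffer. In the combination it was at 71.3 with and 101 without, and in 1.25 mg/kg at 79.3 and 178. Each library thus had less Cd69 in Pdcd1 barcodes, though levels with Pdcd1 in experiment 1 exceeded levels without it in experiment 2. The fold was 1.91 lower (log2 -0.93, SE 0.14, adjusted p = 0.0156 by the same edgeR test). Of the 7 genes, 1 was called higher and 1 lower, where 8.69% of all genes tested were called higher and 9.88% lower. Both genes kept their direction with any 1 library left out. The test then has fewer pairs and less power, and calls were lost. Without 1.25 mg/kg the adjusted p in edgeR was 0.0761 for Nr4a2 and 0.0871 for Cd69, and without 10 mg/kg it was 0.0905 for Cd69. Without the library as a block it was 0.0136 for Nr4a2 and 0.444 for Cd69.

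The other 5 genes did not pass. Nr4a3 was at 92.8 CPM with a Pdcd1 UMI and 42.8 without in 10 mg/kg, and at 66.6 and 67.5 in buffer. It was at 111 with and 61.1 without in the combination, and at 135 and 119 in 1.25 mg/kg (log2 0.47, SE 0.17, edgeR adjusted p = 0.118). The ratio was thus 2.17 in the 10 mg/kg library and 1.81 in the combination, against 0.987 in buffer. Nr4a1 was higher in 3 libraries and lower in 1, with 359 CPM with and 224 without in 10 mg/kg, against 226 and 292 in buffer. In the combination Nr4a1 was at 258 with and 189 without, and in 1.25 mg/kg at 284 and 259. Egr1 had the same pattern, with 185 and 154 CPM in 10 mg/kg, 186 and 236 in buffer, 133 and 92.1 in the combination, and 185 and 149 in 1.25 mg/kg. In the buffer library, macrophage and monocyte markers summed to 663 CPM in barcodes with a Pdcd1 UMI and 4282 in those without, and without the barcodes rich in myeloid RNA both genes were still lower there. Nr4a1 was then at 220 with and 268 without a Pdcd1 UMI, a ratio of 0.820 beside 0.776, and Egr1 at 184 and 218, a ratio of 0.844 beside 0.791. In 1.25 mg/kg, 44.3% of barcodes with a Pdcd1 UMI and 14.6% of those without were rich in myeloid RNA. Without these, Egr1 was at 116 and 105 there, a ratio of 1.10 beside 1.24. Nr4a1 was at 256 and 231, a ratio of 1.11 beside 1.09. Egr2 (log2 -0.20, SE 0.49, adjusted p = 0.818) and Egr3 (log2 0.59, SE 0.41, adjusted p = 0.351) were not called in the edgeR test.

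**Figure D2:**
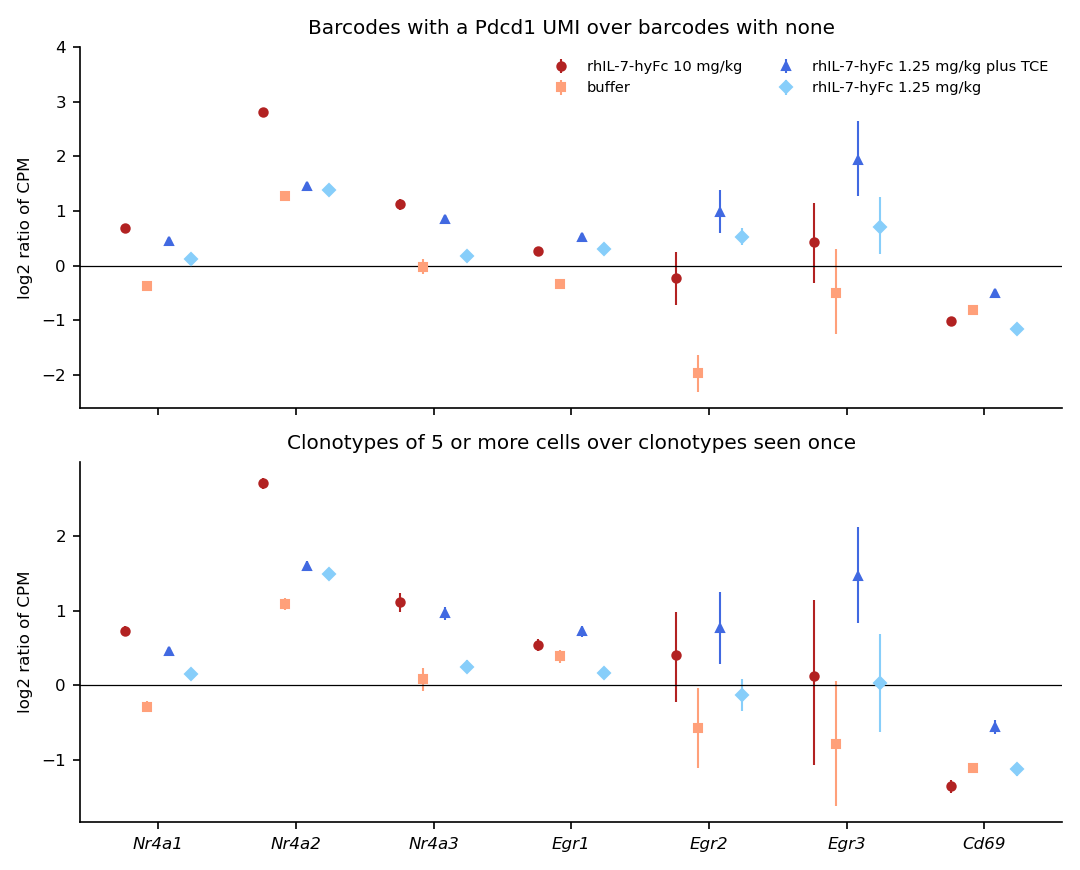
Log2 ratio of CPM for each gene and library, with 95% exact conditional intervals that cover counting error only. The upper panel sets barcodes with a Pdcd1 UMI over those with none, the lower one clonotypes of 5 or more cells over clonotypes seen once. Nr4a2 lies above 0 and Cd69 below 0 in every library in both panels, and the Nr4a2 ratio of the 10 mg/kg library, 6.99 and 6.54, is the highest.

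The relation was graded for Nr4a2. In barcodes thinned to 3000 UMIs with 0, 1, 2 to 3, and 4 or more Pdcd1 UMIs, Nr4a2 was at 207, 328, 388 and 439 CPM in buffer. The same bins gave 138, 279, 352 and 409 in the combination and 167, 319, 363 and 477 in 1.25 mg/kg. In those 3 libraries each bin was above the one before it. In the 10 mg/kg library the bins gave 76.2, 402, 517 and 397 CPM, and the last of them held only 152 barcodes. Cd69 was lowest in the bin of 2 to 3 Pdcd1 UMIs, with 473, 285, 189 and 309 CPM in 10 mg/kg and 469, 384, 294 and 302 in buffer. It was at 107, 95.1, 68.2 and 76.3 CPM in the combination and at 167, 97.4, 90.4 and 104 in 1.25 mg/kg. Nr4a1 was at 236, 408, 404 and 476 CPM over the bins in 10 mg/kg and at 308, 274, 248 and 243 in buffer, and at 198, 267, 262 and 342 in the combination and 255, 278, 291 and 321 in 1.25 mg/kg. Buffer was thus the 1 library of 4 where Nr4a1 was lower in the last bin than in the first. Nr4a3 was at 46.6, 80.3, 82.4 and 107 CPM in 10 mg/kg and at 72.0, 69.4, 71.0 and 72.9 in buffer, and at 69.1, 105, 118 and 142 in the combination and 130.0, 131, 141 and 170.0 in 1.25 mg/kg.

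**Figure D3:**
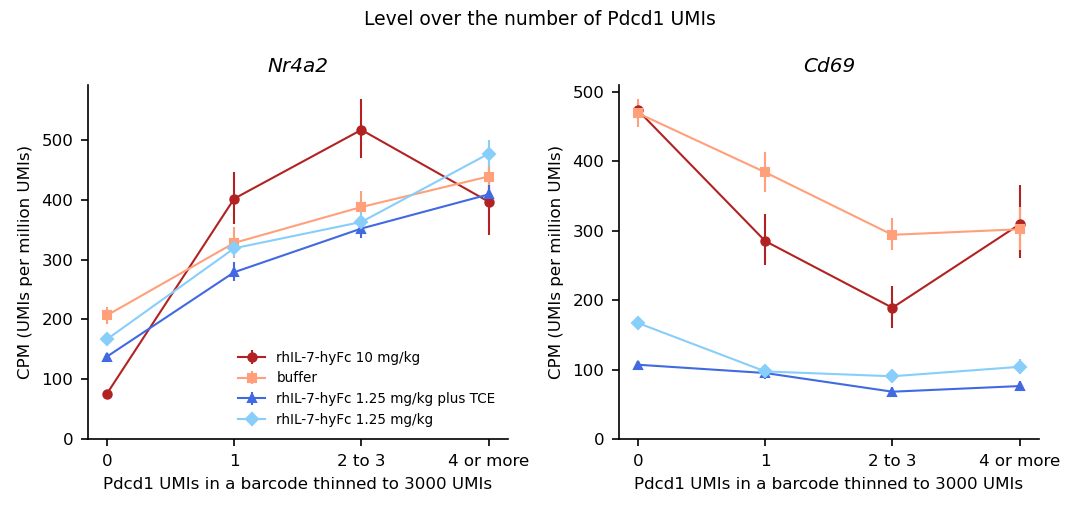
Nr4a2 (left) and Cd69 (right) in CPM over the number of Pdcd1 UMIs in barcodes thinned to 3000 UMIs, 1 line per library, with 95% exact Poisson intervals that cover counting error only. Nr4a2 is lowest and Cd69 highest in the bin of 0 in all 4 libraries.

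Clone size gave the same contrast for Nr4a2 and Cd69. A clonotype here is the set of barcodes of a library with the same α and β chain sequences, and 2766 to 7420 barcodes per library had both chains. Nr4a2 was at 501 CPM in clonotypes of 5 or more cells and 76.7 in clonotypes seen once in the 10 mg/kg library, and at 375 and 176 in buffer. It was at 382 in large clonotypes and 125 in single ones in the combination, and at 387 and 137 in 1.25 mg/kg. Across the paired libraries Nr4a2 was 3.07-fold higher in large clonotypes (log2 1.62, SE 0.23, edgeR adjusted p = 0.00312 over 11937 genes). Clonotypes of 2 to 4 cells already had 501, 405, 321 and 365 CPM of Nr4a2 in the 10 mg/kg, buffer, combination and 1.25 mg/kg libraries.

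Cd69 was at 177 CPM in large clonotypes and 454 in single ones in 10 mg/kg, at 224 and 481 in buffer, at 66.6 and 98.0 in the combination, and at 77.0 and 169 in 1.25 mg/kg. It was lower in large clonotypes of every library (2.20-fold, log2 -1.14, SE 0.15, edgeR adjusted p = 0.00239). Egr1, the EGR gene with most UMIs here, was higher in large clonotypes, with 224 and 154 CPM in 10 mg/kg, 197 and 151 in buffer, 145 and 88.2 in the combination, and 168 and 149 in 1.25 mg/kg. Its fold was 1.28 (log2 0.36, SE 0.09, edgeR adjusted p = 0.0271), and the call was lost without buffer (adjusted p = 0.0648) or without 10 mg/kg (0.0829). Without the block, Nr4a2 kept its call (0.00371) while Cd69 (0.222) and Egr1 (0.423) did not. With 2 higher and 1 lower, the members stand against 19.2% of genes called higher and 19.5% lower, so calls were common in this comparison. Nr4a3 came close, at 98.6 CPM in large and 45.7 in single clonotypes in 10 mg/kg, 62.9 and 59.6 in buffer, 124 and 63.5 in the combination, and 141 and 118 in 1.25 mg/kg (log2 0.51, SE 0.17, edgeR adjusted p = 0.0563). Nr4a1 was below single clonotypes in buffer only, at 219 and 268 CPM, and above them elsewhere, as in 10 mg/kg with 384 and 231 (log2 0.17, adjusted p = 0.400).

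Pdcd1 state and clone size overlap. Of barcodes in clonotypes of 5 or more cells, 94.8% to 96.8% had a Pdcd1 UMI, against 6.79% to 41.5% in clonotypes seen once. Within barcodes with a Pdcd1 UMI, Pdcd1 itself was 1.85-fold higher in large clonotypes (log2 0.89, SE 0.07, edgeR adjusted p = 0.000198), so that split does not hold the Pdcd1 level fixed. Nr4a2 was higher in large clonotypes there, at 504 CPM against 285 in single ones in 10 mg/kg, 375 against 231 in buffer, 383 against 176 in the combination and 390 against 237 in 1.25 mg/kg. Across the paired libraries the Nr4a2 difference was 1.77-fold (log2 0.82, SE 0.08, edgeR adjusted p = 0.000500 over 10614 genes). Cd69 was at 174 against 335 CPM in 10 mg/kg, 215 against 402 in buffer, 66.1 against 92.3 in the combination and 76.1 against 116 in 1.25 mg/kg (1.69-fold lower, log2 -0.76, SE 0.09, edgeR adjusted p = 0.00117). Those were the 2 calls among the 7, 1 in each direction, where 10.6% of genes were called higher and 10.9% lower. Both calls held without any one library, and neither held without the block, at an edgeR adjusted p of 0.0545 for Nr4a2 and 0.610 for Cd69.

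Within large clonotypes Nr4a2 differed by at most 1.26-fold with the Pdcd1 UMI. The ratio of barcodes with a Pdcd1 UMI over those without was 1.25 (0.995 to 1.60) in 10 mg/kg, 1.01 (0.877 to 1.16) in buffer, 1.16 (1.02 to 1.33) in the combination and 1.26 (1.12 to 1.44) in 1.25 mg/kg. In clonotypes seen once it was 5.00, 1.81, 1.73 and 2.20 in the same order. The large clonotypes without a Pdcd1 UMI were few, 13 to 119 barcodes per library, and whether they lacked Pdcd1 RNA or merely missed it cannot be told apart.

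**Figure D4:**
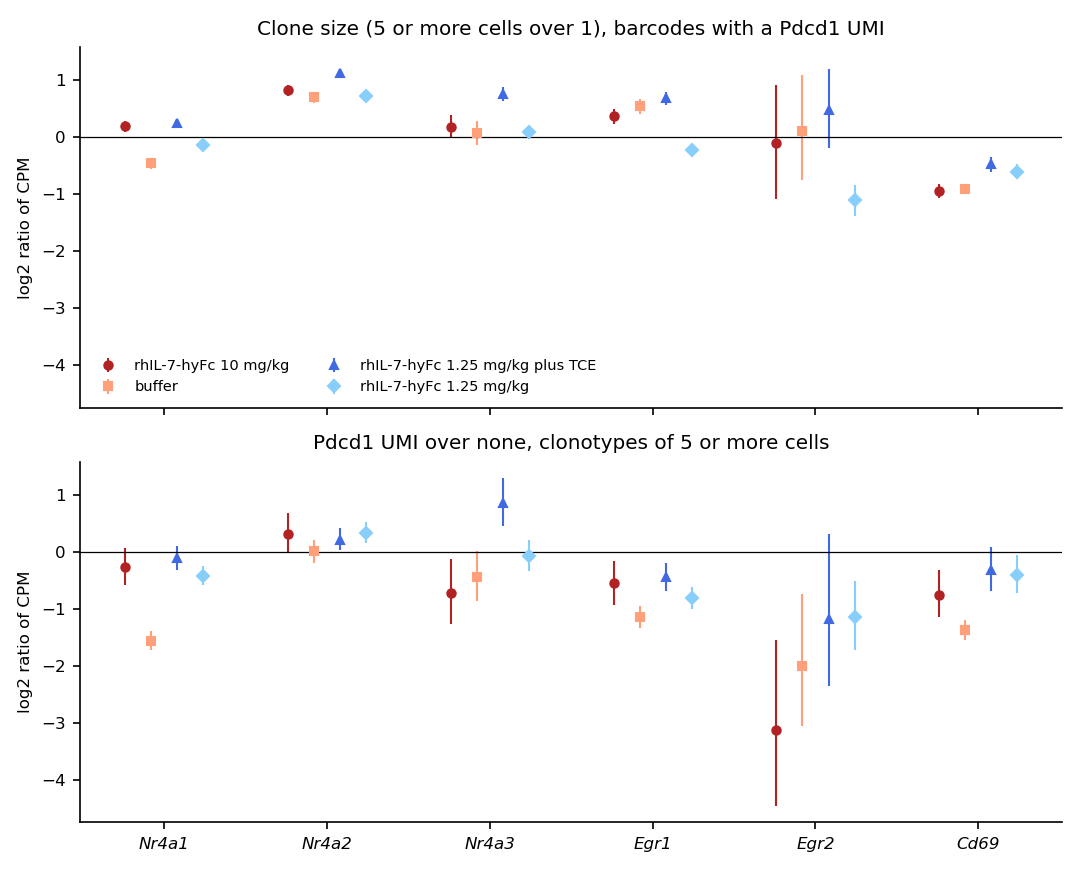
Log2 ratio of CPM for 6 of the genes (Egr3 had too few UMIs), 1 point per library, with 95% exact conditional intervals that cover counting error only. The upper panel sets clonotypes of 5 or more cells over clonotypes seen once among barcodes with a Pdcd1 UMI, the lower one barcodes with a Pdcd1 UMI over those without among clonotypes of 5 or more cells. Nr4a2 lies above 0 in all libraries in the upper panel and between a ratio of 1.01 and 1.26 in the lower one.

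Nr4a2 was higher in nearly every large family. Among clonotypes of at least 20 cells, it was above the level of clonotypes seen once in 4 of 4 in the 10 mg/kg library, 22 of 23 in buffer, 45 of 45 in the combination and 38 of 38 in 1.25 mg/kg. Their medians were 567, 370, 392 and 391 CPM in that order. Cd69 was below its level in single clonotypes in 4 of 4, 22 of 23, 36 of 45 and 38 of 38. Nr4a1 was above it in 4 of 4, 6 of 23, 37 of 45 and 24 of 38, and Nr4a3 in 4, 12, 44 and 25 of the same clonotypes. Clonotypes of a library share its cells, RNA pool and depth, so these are counts within 4 libraries.

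Among barcodes with a Pdcd1 UMI, those with Havcr2 (TIM-3, a marker of late dysfunction) and no Tcf7 were set against those with Tcf7 (TCF-1, a factor of progenitor cells) and no Havcr2. Nr4a2 was at 510 CPM with Havcr2 and 266 with Tcf7 in 10 mg/kg, at 363 and 287 in buffer, at 305 and 278 in the combination and at 315 and 265 in 1.25 mg/kg. It was higher with Havcr2 in each library, by 1.10 to 1.92 times. Pdcd1 barcodes with neither gene had 424 CPM of Nr4a2 in 10 mg/kg, 390 in buffer, 331 in the combination and 385 in 1.25 mg/kg. That was above the Havcr2 barcodes in every library but 10 mg/kg, so Nr4a2 was not highest with Havcr2 throughout. Cd69 was at 163 and 378, 207 and 411, 66.7 and 85.6, and 73.6 and 95.8 CPM in the same 4 libraries, lower with Havcr2 each time. Nr4a1 differed in direction, at 388 with Havcr2 and 309 with Tcf7 in 10 mg/kg and at 194 and 310 in buffer. These splits were not tested across libraries.

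The other genes of the pathway moved in both directions. With a Pdcd1 UMI, 8.69% of all genes tested were called higher and 9.88% lower, and the counts below are read beside those shares. Of 24 other early genes of TCR signals, 8 rose and 6 fell with a Pdcd1 UMI, led by Tnfrsf4 (OX40, a costimulatory receptor; log2 3.41, adjusted p = 0.0146) and Rgs16 (a brake on G protein signals; log2 3.29, adjusted p = 0.0203). Of 13 EGR partners and brakes, 3 rose and 2 fell. Nab2, the corepressor that binds EGR proteins, rose by log2 1.22 (adjusted p = 0.00813) and Ubash3b, a phosphatase that dampens TCR signals, by 1.56 (adjusted p = 0.00307). Of 11 tested exhaustion genes linked to NR4A activity, 8 rose and none fell, with Lag3 at log2 3.50 (adjusted p = 0.0235) and Cd244a at 2.70 (adjusted p = 0.0279), both inhibitory receptors. Among 12 egress and residency genes, 7 fell and 2 rose, and S1pr1, the receptor that CD69 removes from the surface, fell by log2 2.66 (adjusted p = 0.00307). Thus Cd69 and S1pr1 RNA were low in the same set of barcodes. Of 12 tested outputs of activation 3 rose, Ifng among them (log2 2.53, adjusted p = 0.0105). All these p-values are from edgeR, and the median over all genes tested was -0.010, against 1.60 for the exhaustion genes, -1.01 for the egress genes and 0.17 for the 7 members.

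Early genes can also be induced by tissue digestion, and these tumours were digested with enzymes before the cells were isolated. Of 24 AP-1 and digestion stress genes, none rose and 3 fell with a Pdcd1 UMI (edgeR), where 8.69% of all genes rose and 9.88% fell, and their median log2 was -0.21. Socs3 (log2 -1.53, adjusted p = 0.00437) and Btg1 (log2 -0.76, adjusted p = 0.0192) were the largest falls. By clone size 4 of the 24 rose and 6 fell, near the 19.2% and 19.5% over all genes, with a median of -0.17, with Socs3 at log2 -2.15 (adjusted p = 0.000517) and Atf3 at 0.98 (adjusted p = 0.0189). Within Pdcd1 barcodes 1 rose and 4 fell, with a median of -0.13, where 10.6% of all genes rose and 10.9% fell. The part of digestion in the members' values was not tested.

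By clone size, 19.2% of all genes tested were called higher and 19.5% lower, so calls in the other lists stand beside high shares. In large clonotypes 11 of 24 early genes rose and 8 fell, 5 of 13 EGR partners and brakes rose and 3 fell, and 8 of 11 exhaustion genes rose. Of 12 egress genes 7 fell and 4 rose in edgeR, with S1pr1 among those that fell (log2 -4.53, adjusted p = 2.28e-05). Within Pdcd1 barcodes S1pr1 still fell by log2 3.67 (adjusted p = 5.77e-05), and Havcr2 rose by 1.44 (adjusted p = 5.77e-05).

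Egr2 and Egr1 moved with myeloid RNA. In barcodes with at least 0.3% myeloid UMIs, Egr2 was at 30.5 CPM against 2.87 in the rest in 10 mg/kg, at 39.6 against 3.50 in buffer, at 11.3 against 2.68 in the combination and at 31.1 against 3.61 in 1.25 mg/kg. Without those barcodes, Egr2 thus lay between 2.68 and 3.61 CPM in all 4 libraries. Barcodes with no Cd8 or Cd3 UMI had 17.1 to 106 CPM of Egr2. Egr1 was at 205 against 160 CPM in 10 mg/kg, at 255 against 191 in buffer, at 169 against 111 in the combination and at 227 against 112 in 1.25 mg/kg. Cd69 ran the other way in each library, for example 76.7 against 139 CPM in 1.25 mg/kg. Nr4a1 was higher with myeloid RNA in 10 mg/kg (326 against 254 CPM), buffer (345 against 229) and 1.25 mg/kg (303 against 246). In the combination it was at 234 against 238. Nr4a3 was higher in 10 mg/kg (87.2 against 54.0 CPM), buffer (98.7 against 63.1) and the combination (110 against 93.3). In 1.25 mg/kg it was at 128 against 134. Nr4a2 was lower with myeloid RNA in buffer, at 180 against 327 CPM, and higher in 10 mg/kg, at 193 against 147. Without these barcodes, the ratio of Nr4a2 between barcodes with and without a Pdcd1 UMI was 7.28 in 10 mg/kg, 2.33 in buffer, 2.90 in the combination and 3.34 in 1.25 mg/kg, beside 6.99, 2.42, 2.73 and 2.61 with them.

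The 10 mg/kg library had less Nr4a2 than buffer over all CD8 T barcodes, and more NR4A RNA inside Pdcd1 barcodes. Over all barcodes, 2 of the 6 members with at least 5 CPM in a library, Nr4a2 and Egr2, were at least 1.5-fold lower on CPM + 1 and none was that much higher. Of 9067 genes, 19.5% were lower and 5.87% higher by that rule, and the median log2 of all genes was -0.204, against -0.28 for the members. Nr4a2, at 148 against 312 CPM, was 2.10-fold lower (2.05 to 2.16). Egr2, at 3.62 against 7.22 CPM, was lower by 2.00-fold. Without barcodes rich in myeloid RNA it was at 2.87 against 3.50 CPM, and Nr4a2 was the 1 of 5 measured members past 1.5-fold, beside 17.2% of genes lower and 6.93% higher. Trimmed-mean scaling moved every gene up by 0.27 on the log2 scale in this pair, and Cd69, at 412 against 305 CPM, then passed 1.5-fold higher, while Nr4a3 and Egr1 came to log2 -0.01 and -0.02.

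The makeup of the library moved along, with 17.4% of barcodes holding a Pdcd1 UMI after 10 mg/kg against 67.1% after buffer. Within barcodes with a Pdcd1 UMI, Nr4a2 was at 425 CPM after 10 mg/kg and 360 after buffer, a ratio of 1.18, and within barcodes without one at 60.7 and 149, 2.45-fold lower. The direction of the Nr4a2 difference thus turned between the 2 states. Nr4a1 was at 359 CPM after 10 mg/kg and 226 after buffer with a Pdcd1 UMI (ratio 1.59, 1.53 to 1.65), and at 224 and 292 without. Nr4a3 was at 92.8 and 66.6 CPM with a Pdcd1 UMI (1.39), and at 42.8 and 67.5 without (1.57-fold lower). All 3 NR4A genes were higher after 10 mg/kg among Pdcd1 barcodes and lower among the rest. Of the 5 members measured among Pdcd1 barcodes, 1 was at least 1.5-fold higher, Nr4a1, where 2.18% of genes were, and none lower, where 3.42% were.

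In clonotypes of 5 or more cells, Nr4a1 was at 384 CPM after 10 mg/kg and 219 after buffer (ratio 1.75), Nr4a2 at 501 and 375 (1.34) and Nr4a3 at 98.6 and 62.9 (1.57). There 2 of the 5 measured members, Nr4a1 and Nr4a3, were at least 1.5-fold higher, where 2.54% of genes were, and none lower (2.39%). Those clonotypes held 407 barcodes after 10 mg/kg and 1585 after buffer. In clonotypes seen once, Nr4a2 was at 76.7 and 176 CPM, 2.30-fold lower, and the only member past 1.5-fold, where 10.9% of genes were that much lower and 3.31% higher. Among barcodes without a Pdcd1 UMI, 4 of 6 were at least 1.5-fold lower, namely Nr4a2, Nr4a3, Egr1 and Egr2, beside 26.6% of genes lower and 4.52% higher. Macrophage and monocyte markers summed to 535 CPM after 10 mg/kg and 4282 after buffer in that stratum. Without its myeloid-rich barcodes Nr4a2 was at 59.0 and 158 CPM and Egr2 at 3.02 and 6.83, while Nr4a3, at 42.3 and 61.8, and Egr1, at 153 and 218, were under 1.5-fold apart. With clonotypes seen once and no Pdcd1 UMI, Egr1 was at 152 and 168 CPM and Nr4a3 at 42.0 and 59.7. Cd69 was nearly level in barcodes without a Pdcd1 UMI, at 469 and 457 CPM, but at 474 and 540 without the myeloid-rich barcodes. With clonotypes seen once and no Pdcd1 UMI, Cd69 was at 465 and 552 CPM. In large clonotypes Cd69 was lower after 10 mg/kg, at 177 and 224.

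**Figure D5:**
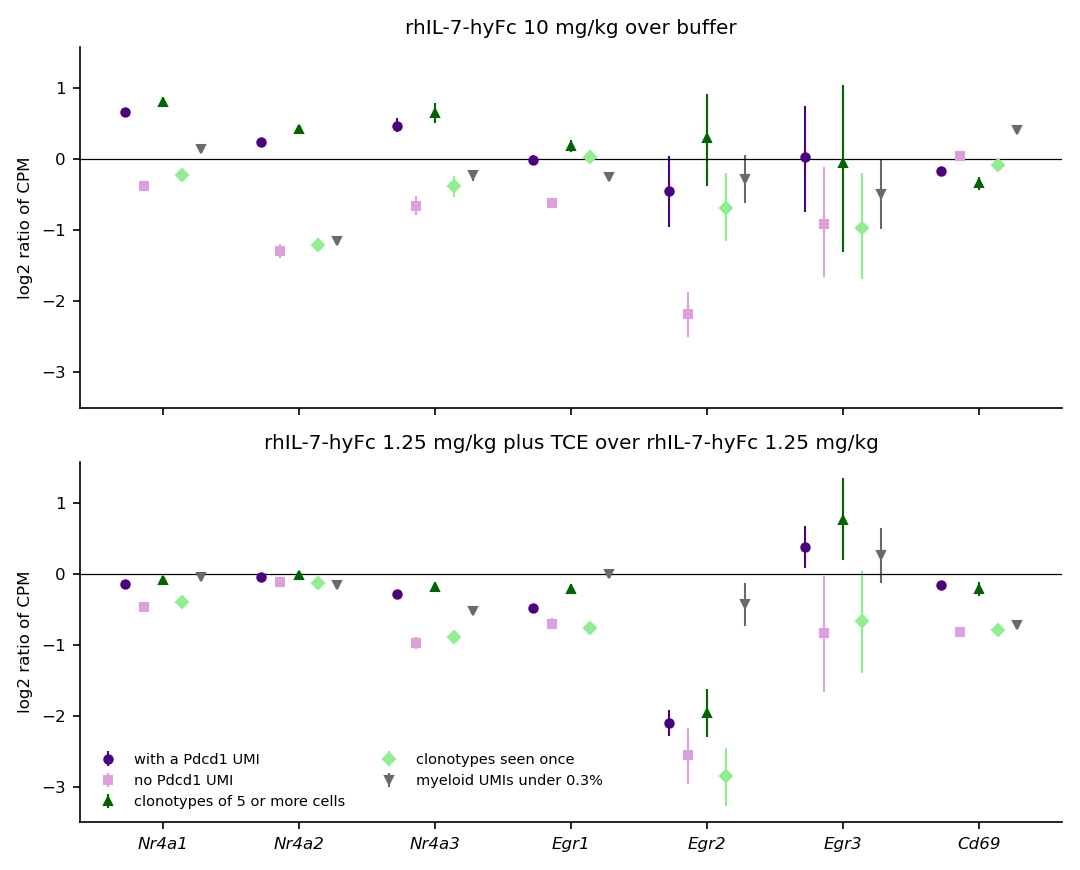
Log2 ratio of CPM between the 2 libraries of each experiment, within 5 sets of CD8 T barcodes, with 95% exact conditional intervals that cover counting error only. Upper panel, 10 mg/kg rhIL-7-hyFc over buffer: Nr4a1, Nr4a2 and Nr4a3 lie above 0 with a Pdcd1 UMI and below 0 without. Lower panel, combination over 1.25 mg/kg: Nr4a2 stays near 0 in all sets, and Egr2 is far below 0 except where myeloid UMIs are under 0.3%.

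With the TCE, an agent that links CD3ε on T cells to PD-L1, none of 6 measured members was at least 1.5-fold higher 24 h after the last treatment. In the combination 1.91% of 9308 genes were that much higher, and 8.59% were lower, with Egr2 the 1 member among them. The members' median log2 was -0.41 and that of all genes 0.081. Nr4a2 was at 251 CPM in the combination and 268 in 1.25 mg/kg (1.07-fold lower), Nr4a1 at 238 and 278 (1.17-fold lower) and Nr4a3 at 96.0 and 131 (1.36-fold lower). All 3 NR4A genes were thus lower by less than 1.5-fold. Without barcodes rich in myeloid RNA, Nr4a1 was at 238 and 246 CPM, 1.03-fold lower. Nr4a2 was then 1.11-fold and Nr4a3 1.44-fold lower. Egr1 was at 121 and 176 CPM, and at 111 and 112 without barcodes rich in myeloid RNA. Egr2 was at 4.08 and 18.8 CPM, and at 2.68 and 3.61 without those barcodes. Cd69, at 80.0 and 105 CPM, was at 85.0 and 139 without them, 1.64-fold lower, which made it the 1 member of 5 past 1.5-fold there (2.68% of genes lower, 1.19% higher).

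The gap was wider in barcodes without a Pdcd1 UMI, where 4 of 6 members were at least 1.5-fold lower in the combination, beside 8.75% of genes lower and 5.28% higher. There Nr4a3 was at 61.1 CPM in the combination and 119 in 1.25 mg/kg, Cd69 at 101 and 178, Egr1 at 92.1 and 149 and Egr2 at 2.42 and 14.2. Myeloid-rich barcodes were 1.91% of that stratum in the combination and 14.6% in 1.25 mg/kg. Without the myeloid-rich barcodes Cd69 was at 101 and 206 CPM and Nr4a3 was also more than 1.5-fold lower, while Egr1, at 86.6 and 105, was under 1.5-fold apart and Egr2, at 2.11 and 3.25, was below 5 CPM in both. Nr4a2 differed less, at 113 and 122 CPM with all barcodes of the stratum. With a Pdcd1 UMI, 1 of 6 was lower, Egr2, beside 8.65% of genes lower and 2.34% higher, and Nr4a2 was at 308 and 318 CPM. In clonotypes seen once the same 4 were lower (8.86% of genes lower, 4.65% higher), with Nr4a3 at 63.5 and 118 CPM. There too Egr1, at 82.8 and 102 CPM, came under 1.5-fold without the myeloid-rich barcodes, and Egr2 was at 1.95 and 3.28. In large clonotypes 1 member, Egr2, was lower (8.21% of genes lower, 2.49% higher), at 3.21 and 3.19 CPM without the myeloid-rich barcodes. Egr3, below 5 CPM in these sets, was not counted. In large clonotypes it was at 3.11 CPM in the combination and 1.83 in 1.25 mg/kg, from 78 and 41 UMIs. With a Pdcd1 UMI it was at 2.97 and 2.28. Without one it was lower in the combination, at 0.782 and 1.39, and in clonotypes seen once at 1.13 and 1.79. Of the 24 AP-1 and digestion stress genes, 9 were at least 1.5-fold lower in the combination over all CD8 T barcodes, beside 8.59% of genes, such as Atf3 at 60.2 against 244 CPM and Ier3 at 72.2 against 279, and in experiment 1 the same list had 8 lower and 2 higher after 10 mg/kg, beside 19.5% and 5.87% of genes. These counts and levels include the myeloid-rich barcodes, which were 7.12% of the combination and 32.1% of 1.25 mg/kg. The part of this shift in the members' values was not tested.

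Over 22 strata of library, Pdcd1 state and clone size, centred within libraries, the members' log2 levels were set beside those of 6831 genes. Nr4a2 was most like Ptms and the glycolytic enzyme gene Tpi1, each at r = 0.98. Cd69 was most like Tob1 and Btg1, both antiproliferative factors, each at 0.97. Egr1 was most like Cd14 (0.92) and Dok3 (0.87), and Egr2 most like Pilra (0.88) and Rab9 (0.86), Cd14 and Pilra being receptors of myeloid cells. Nr4a1 was most like H3f3b (0.91) and Lmna (0.87), Nr4a3 most like Riox2 (0.88) and Cyfip1 (0.87), and Egr3 most like Akap8 (0.83) and Ubr3 (0.81). Among themselves, r was 0.82 for Nr4a2 and Nr4a3, 0.68 for Nr4a1 and Egr1, 0.51 for Nr4a1 and Nr4a2, and -0.76 for Nr4a2 and Cd69. Strata of a library share its depth and free RNA, so these r are descriptions with no test.

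Within single barcodes, Nr4a3 was found more often where Nr4a2 was found. After thinning to 3000 UMIs, a Nr4a3 UMI was found in 20.4% of barcodes with a Nr4a2 UMI and 10.9% of those without in 10 mg/kg, in 21.3% and 13.9% in buffer, in 29.8% and 16.2% in the combination, and in 36.1% and 25.4% in 1.25 mg/kg. The ratio of those shares was 1.42 to 1.87. Cd69 went with Nr4a2 the other way, at 53.4% and 62.3% in 10 mg/kg, 49.4% and 52.8% in buffer, 17.3% and 20.4% in the combination, and 23.9% and 29.4% in 1.25 mg/kg.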

How the data were processed

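Expression was read from the deposited UMI counts per gene and barcode of 4 10x 5′ libraries, which the authors made with Cell Ranger 4.0.0 (experiment 1) and 6.1.2 (experiment 2), per the file headers. The build was GRCm38 according to the submitters' processing notes. Barcodes with at least 500 genes and under 10% mitochondrial UMIs were kept, and no doublet caller was run (5.43% to 8.56% of gated barcodes had more than 1 beta chain). Clonotypes came from the matched TCR tables. CPM, ratios and shares were computed with Python 3.11.15 and scipy 1.17.1, with 95% exact intervals.

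Counts were summed per library and state and tested with edgeR 4.0.16 in R 4.3.3 (quasi-likelihood, TMM, filterByExpr, library as block, adjusted p under 0.05). Pdcd1 was left out of the first comparison. The labels number every group's library 1, so the block is the library itself, and p-values measure the spread between these 4 libraries. Treatments, with 1 library each, were described on log2(CPM + 1) for genes with at least 5 CPM in a library. DESeq2 1.42.0 was an alternative. The test was checked on simulated data. Genes named beside the 7 are the 2 of each list with the largest log2 ratio and the 2 most alike over strata. A result on 1 gene that this rule names is not reported here. The members and lists were chosen with earlier results of these data known. The limit of 0.3% myeloid UMIs and that of 1 beta chain were chosen after seeing the data.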

Additional observations from a re-analysis of the deposited data

Results flagged for a closer look

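Nr4a1 differed in direction between the 2 libraries of experiment 1 in the 3 state comparisons tested with edgeR. As log2 ratios of CPM, barcodes with a Pdcd1 UMI over those without gave 0.69 in the 10 mg/kg library and -0.37 in buffer. Large over single clonotypes gave 0.73 and -0.29, and the same among Pdcd1 barcodes 0.19 and -0.46, again with 10 mg/kg first. In experiment 2, clone size among Pdcd1 barcodes gave 0.24 for Nr4a1 in the combination and -0.14 in 1.25 mg/kg. Egr1 also turned, with 0.26 in 10 mg/kg and -0.34 in buffer by Pdcd1 state, and with 0.69 in the combination and -0.23 in 1.25 mg/kg by clone size among Pdcd1 barcodes. In 1.25 mg/kg, 353 of 536 Pdcd1 barcodes in single clonotypes and 1816 of 2420 in large ones had under 0.3% myeloid UMIs. Egr1 was at 227 CPM in the myeloid-rich barcodes of that library and 112 in the rest. The part of myeloid RNA in this turn was not tested. For Nr4a1 both libraries of experiment 1 went the same way by Pdcd1 state within clonotypes seen once, with ratios of 1.52 in 10 mg/kg and 1.15 in buffer. Within large clonotypes both went the other way, at 0.834 (0.670 to 1.05) in 10 mg/kg and 0.340 in buffer. There the ratio was 0.924 in the combination and 0.746 in 1.25 mg/kg. These differences between libraries were not tested, since each treatment has 1 library.

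In 3 results 1 library stood far from the other 3. The libraries differ in treatment and experiment, and how often chance gives this was not tested. Nr4a2 by Pdcd1 state was at log2 2.81 in the 10 mg/kg library. By clone size among Pdcd1 barcodes, Nr4a3 was at 0.76 and Egr3 at 0.57 in the combination. For Egr3 this is a ratio of 1.48 with an interval of 0.879 to 2.63, which overlaps those of the other libraries.

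Filtered barcodes with no Cd8 and no Cd3 UMI, which are outside the CD8 T gate, had more RNA of some of these genes than those of the matching control library. Nr4a1 was at 471 CPM in 10 mg/kg and 323 in buffer, Egr2 at 106 and 59.0, and Cd69 at 152 and 108. Egr3 was at 20 CPM in the combination and 1.98 in 1.25 mg/kg. These rest on few molecules, 14 UMIs in 10 of 132 barcodes and 11 UMIs in 8 of 923. The other genes were near or below the control there. In experiment 1 Nr4a2 was at 118 CPM in 10 mg/kg and 117 in buffer, Nr4a3 at 46.4 and 62.1, Egr1 at 293 and 337, and Egr3 at 0.588 and 1.03. In experiment 2 Nr4a1 was at 386 in both, Nr4a2 at 120.0 in the combination and 119 in 1.25 mg/kg, Nr4a3 at 74.3 and 79.6, Egr1 at 337 and 356, Egr2 at 17.1 and 47.1, and Cd69 at 58.6 and 64.4.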

How the results depend on the processing

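Nr4a2 kept its direction in all alternatives of the 3 state comparisons, with log2 between 1.36 and 1.77 by Pdcd1 state, 1.34 and 1.96 by clone size, and 0.72 and 1.29 by clone size within Pdcd1 barcodes. Cd69 did so too. The causes of the changes below were not tested. Without the replicate block (the library term), genes called fell to 406 higher and 328 lower by Pdcd1 state, 928 and 844 by clone size, and 184 and 215 within Pdcd1 barcodes, with 1, 1 and 0 members past the threshold, and Egr2 reversed to -0.10 by clone size. With each library left out in turn, Pdcd1 state gave 50 to 1690 genes higher and 122 to 1744 lower, with 0 to 2 members past the threshold (Egr2 -0.58 to 0.36, above 0 without buffer). Clone size gave 1341 to 2155 higher and 1397 to 2018 lower, with 2 to 3 members (Egr2 -0.22 to 0.21 and Egr3 -0.32 to 0.50, both lowest without the combination, and Egr2 -0.04 without 10 mg/kg). Within Pdcd1 barcodes the range was 705 to 965 higher and 725 to 1045 lower, with 2 to 3 members (Nr4a1 -0.17 to 0.07, above 0 without buffer, and Egr2 -0.68 to 0.17, above 0 without 1.25 mg/kg). DESeq2 called 1692 genes higher and 1863 lower by Pdcd1 state, and put Egr2 at -0.00 by clone size. No filter on low counts gave 4 members past the threshold within Pdcd1 barcodes, and thinning gave 577 genes higher and 625 lower there. At most 3 myeloid UMIs gave 1472 higher, 1534 lower and 5 members by clone size, 695, 666 and 4 within Pdcd1 barcodes, Egr2 at 0.05 by Pdcd1 state and Nr4a1 at 0.30 within Pdcd1 barcodes. Myeloid UMIs under 0.3% gave 2107 higher and 2256 lower by Pdcd1 state and Egr2 at -0.28 by clone size, and equal numbers of cells put Egr2 at -0.14 there.

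For 10 mg/kg against buffer, TMM factors gave 1074 genes higher, 1046 lower and 1 member higher, no filter on low values gave 2836 lower, and each clonotype counted once gave 260 higher and 1035 lower. Members lower were 1 with a pseudocount of 5 CPM, 4 with at most 3 myeloid UMIs and 1 with myeloid UMIs under 0.3%. For the combination against 1.25 mg/kg, members lower were 2 with TMM and 3 with each clonotype once, which gave 326 genes higher. A pseudocount of 5 CPM gave 87 higher, no filter 1211 lower, at most 3 myeloid UMIs 228 lower, and myeloid UMIs under 0.3% gave 107 higher and 241 lower. Of the values of single genes, 340 kept their direction and side of the threshold and 81 without a test moved.

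With 1 library per treatment, no treatment difference has a replicate error. Mice per library, day and isolation cannot be told apart from treatment or experiment. Over all CD8 T barcodes, Egr3 was too rare to rank within an experiment at this depth. The states share barcodes, so the 3 comparisons are not independent, and Pdcd1 barcodes are deeper (7190.5 to 13173 UMIs at the median, against 5135 to 9382).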
